A study of Mus musculus with 2 samples.

Results

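Ribosome biogenesis factors are the proteins that transcribe, modify, cut and fold ribosomal RNA in the nucleolus and attach ribosomal proteins to it, and that leave the ribosome before it works. In the nucleolus, RNA polymerase I makes a long precursor RNA. Small nucleolar ribonucleoproteins (snoRNPs) modify its nucleotides. The small subunit (SSU) processome cuts and folds the part that becomes the 40S subunit, and another series of assembly factors builds the 60S subunit. Proliferating progenitors are known to make ribosomes at a high rate, and this output is known to be cut back as granulocytes mature. The 53 factors described here were listed by symbol for these roles, with earlier results of these data known, and all 53 symbols were found among the 24421 in the deposited data.

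RNA was sequenced from granulocyte-monocyte progenitors (GMPs), the bone marrow cells that give rise to granulocytes and monocytes, sorted by flow cytometry from female mice of a mixed H-2b/d F1 background. The NTB-GMP library came from mice without a tumor and the 4T1-GMP library from mice that carried 4T1, a mouse mammary carcinoma cell line, placed in the mammary gland. There was 1 library per group and the labels give neither the age of the mice nor how many were pooled. No difference below therefore has a replicate check or a p-value.

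Values are RPKM, read counts set relative to gene length and library size, so that levels can be compared between genes as well as between libraries. The scaled library sizes behind the RPKM, worked out from the values, were 10180365.24 for NTB-GMP and 30016262.8 for 4T1-GMP, a ratio of 2.95. Ratios of 4T1-GMP over NTB-GMP are on the log2(RPKM + 0.1) scale. They were read beside the same ratios of the 10378 genes whose mean RPKM reached 1, called tested genes below, of which all 53 factors are part. Intervals are 95% Clopper-Pearson intervals on the reads behind the RPKM and cover counting error only, since reads without molecular identifiers are not independent molecules. With 1 library per group, a gene is counted as higher or lower when it passed 1.2-fold or 1.5-fold.

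The mRNAs of ribosome biogenesis factors were modestly higher in 4T1-GMP. Their median log2 ratio was 0.22, with quartiles of 0.15 and 0.35, against a median of 0.05 for all tested genes. Past 1.2-fold, 24 of the 53 factors (45.3%) were higher and 0 lower, where 30% of tested genes were higher and 24.9% lower. Past 1.5-fold, 4 (7.55%) were higher and 0 lower, against 9.8% and 11.6% of tested genes, so the share of large rises was not above that of other genes. The 4 were Pno1, Mrto4, Emg1 and Bop1, of which Mrto4 and Bop1 serve the 60S subunit and Pno1 and Emg1 the 40S subunit. At any size of difference 47 factors were higher and 6 were lower, where 54.7% of tested genes were higher. The counting interval lay above 0 for 40 factors, below 0 for 1 (Noc2l) and held 0 for the other 12. Wdr12 was among the 12, and its recovered reads may be too few, so its interval may be too wide.

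**Figure D1:**
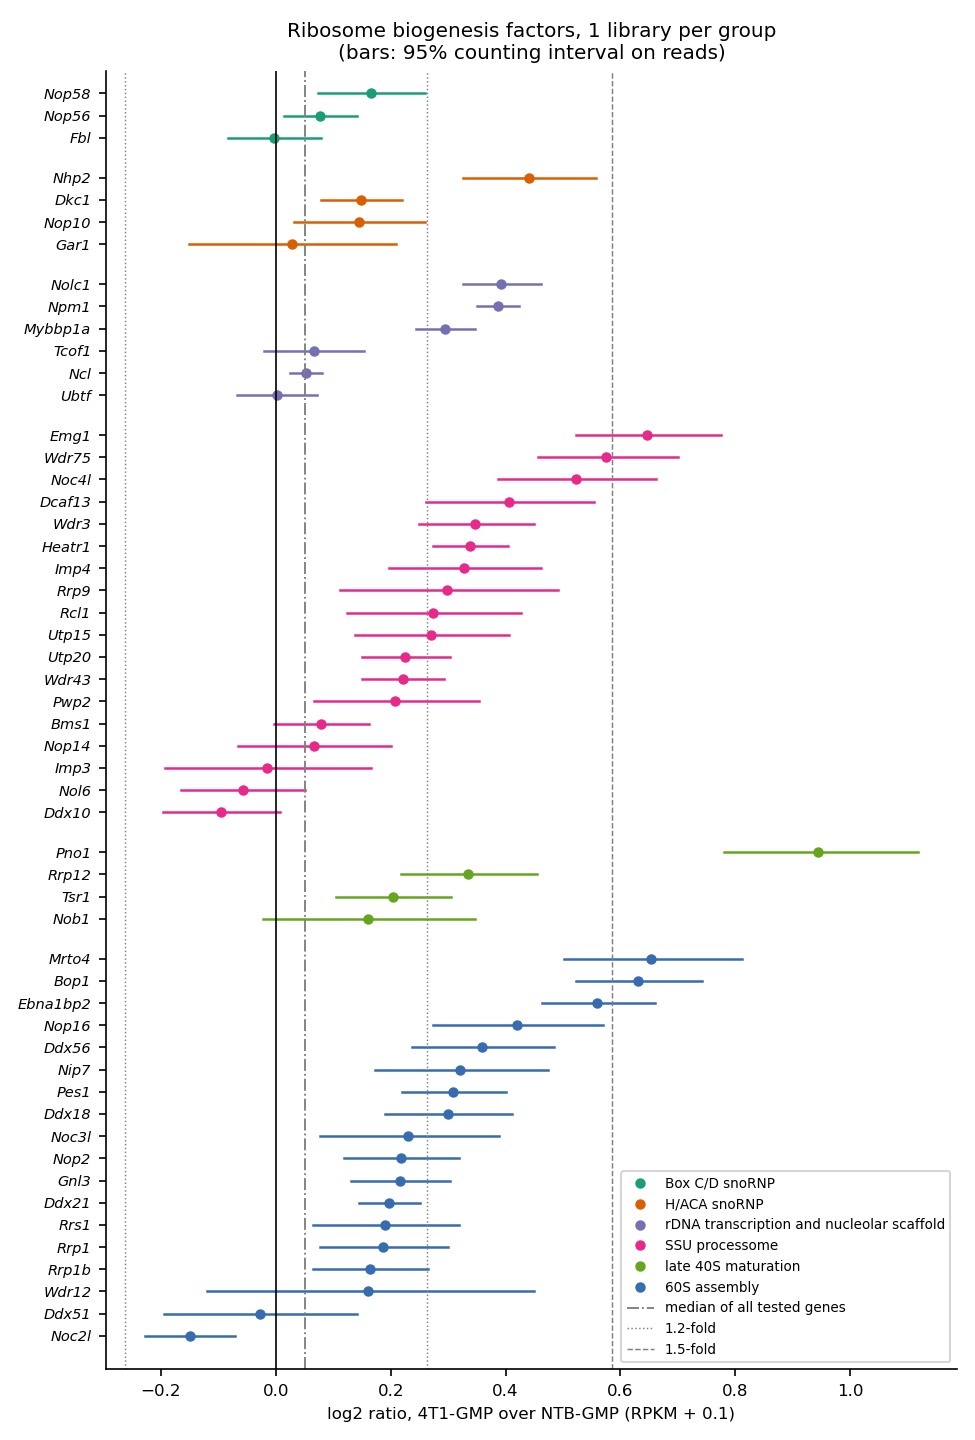
Log2 ratio of 4T1-GMP over NTB-GMP (x axis, log2 of RPKM + 0.1) for each of the 53 factors, grouped by role, with bars for the 95% counting interval on reads. Pno1 stands apart at 0.94, only Noc2l has an interval below 0, and no factor lies below the 1.2-fold line on the lower side.

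Expression level has to be set beside this shift, because abundant genes as a whole were higher in 4T1-GMP. Tested genes with a mean RPKM between 2 and 5 had a median log2 ratio of -0.20, and those between 50 and 100 RPKM one of 0.25. The factors are abundant mRNAs, with mean levels from 7.85 to 1035 RPKM and a median of 35.7 RPKM. Against the 3468 genes whose mean RPKM reached 20, with a median that was 0.18, the factors' median of 0.22 was only 0.04 higher. In that abundant background 39.7% of genes were higher past 1.2-fold, 10.2% lower past 1.2-fold, 9.63% higher and 3.26% lower past 1.5-fold, and 71.9% higher at any size.

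How the factors stood against genes of their own level changed along the scale. The 6 factors between 10 and 20 RPKM had a median log2 ratio of 0.25, against 0.05 for the 2438 genes of that range. The 30 factors between 20 and 50 RPKM had a median of 0.29, against 0.14 for 2216 genes. At higher levels the order turned. The 9 factors between 50 and 100 RPKM had a median of 0.22, against 0.25, and the 7 factors at 100 RPKM or more had 0.15, against 0.24. Among the factors themselves, the log2 ratio had no visible relation to level (Pearson r = 0.03, Spearman rho = 0.01, across 53 genes of the same libraries, which are not independent replicates).

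**Figure D2:**
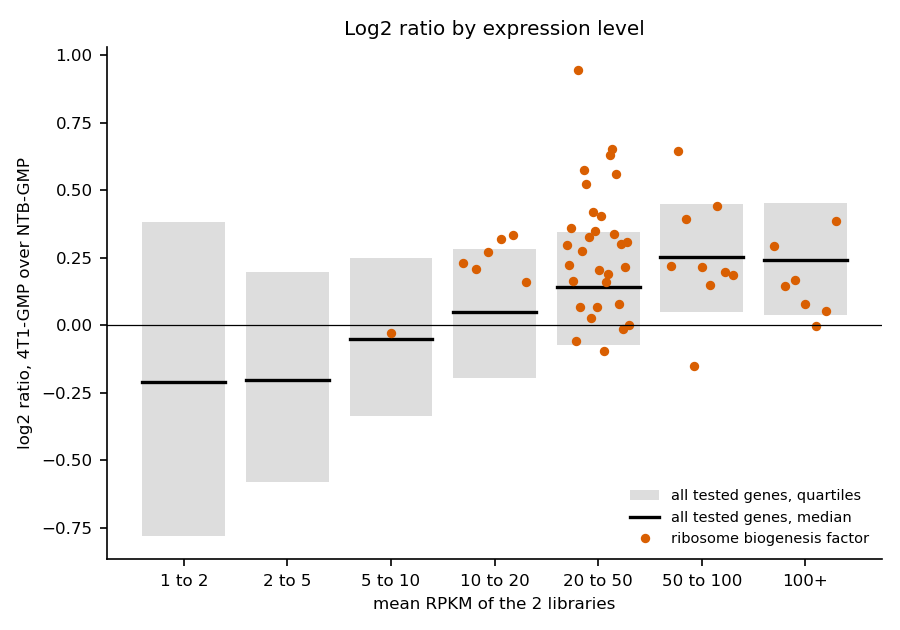
Log2 ratio of 4T1-GMP over NTB-GMP (y axis) in bins of mean RPKM (x axis), with grey boxes for the quartiles and black bars for the median of all tested genes, and orange points for the factors, set side by side within a bin for visibility. The median of all genes goes from -0.21 in the lowest bin to 0.24 in the highest, and most factors of 10 to 50 RPKM lie above it.

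Levels differed far more between factors than between libraries. Npm1, which encodes nucleophosmin, an abundant nucleolar chaperone, was at 897 RPKM in NTB-GMP against 1173 in 4T1-GMP. It was the most abundant factor and made up 27.5% of the summed RPKM of all 53 factors in NTB-GMP and 29.7% in 4T1-GMP. Ncl, which encodes nucleolin, an RNA-binding protein of the nucleolus, had 162 and 168 RPKM. Fbl, which encodes fibrillarin, had 141 RPKM in each library. Ddx51, an RNA helicase gene, was the least abundant, at 7.93 and 7.78 RPKM. The summed RPKM of all 53 factors was 3263 in NTB-GMP against 3943 in 4T1-GMP, a log2 ratio of 0.27, or 0.23 without Npm1. Npm1 has processed copies in the mouse genome, and how reads shared with such copies were counted is not given in the sources used here.

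**Figure D3:**
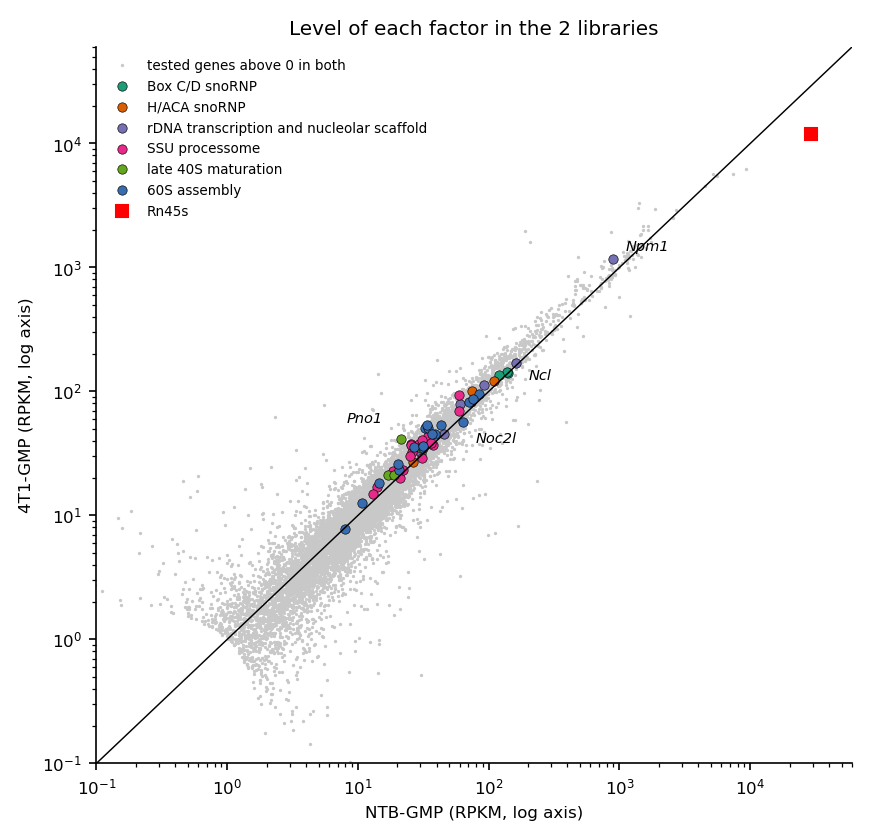
RPKM in NTB-GMP (x axis) and in 4T1-GMP (y axis), both log axes, for tested genes above 0 in both libraries (grey), the 53 factors by role (colored circles) and Rn45s (red square). The line marks equal levels: the factors follow it over a 132-fold range, while Rn45s lies below it.

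The RNA that these factors act on went the other way. Rn45s, the row for the ribosomal RNA precursor, was at 29065 RPKM in NTB-GMP against 11960 in 4T1-GMP, 0.41 times as much, a log2 ratio of -1.28 (interval -1.28 to -1.28 after rounding). It took 18.2% of the reads recovered in NTB-GMP and 7.95% of those in 4T1-GMP. The length behind this row was 5833 bases, and reads of the precursor and of the mature rRNA inside it cannot be told apart in it. Whether ribosomal RNA was removed before sequencing is not given in the sources used here. The library sizes appear to carry a scale factor already. Leaving Rn45s out of both shifted the median of all tested genes from 0.05 to -0.11 and that of the factors to 0.06. Past 1.2-fold, 8 factors were then higher and 1 lower, beside 17.6% and 36.3% of tested genes. At any size of difference 36 factors were then higher, beside 39.2% of tested genes. With plain totals of the recovered reads without Rn45s, these medians were -0.03 and 0.14. With those totals 14 factors were higher and 0 lower past 1.2-fold, beside 23.4% and 30.4% of tested genes. The distance between the medians of the factors and of all tested genes was 0.17 with Rn45s and without it. By construction, such a scaling shifts all ratios alike and leaves this distance nearly as it is.

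Of 11 ways to scale or filter the values, with the reported one among them, 31 factors were above 0 in all, Ddx10 and Noc2l were below 0 in all, and 20 had both signs. Pno1, Mrto4, Emg1 and Bop1 were among the 31. Ways that change only the background genes leave the ratios of the factors as they are.

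**Figure D4:**
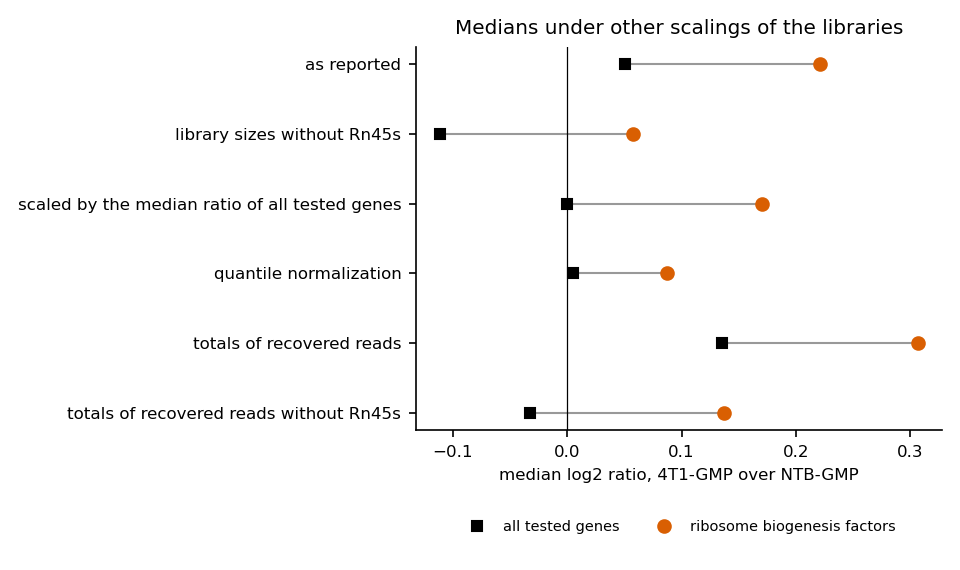
Median log2 ratio of 4T1-GMP over NTB-GMP (x axis) of the 53 factors (orange circles) and of all tested genes (black squares) under 6 scalings of the libraries (y axis). Apart from quantile normalization, scalings move both medians together by construction, from -0.11 and 0.06 without Rn45s to 0.14 and 0.31 with plain read totals. Quantile normalization brings the medians closest, at 0.005 and 0.09.

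Polymerase I transcription and the scaffold of the nucleolus are served by 6 of the factors. The upstream binding factor gene Ubtf, which opens rDNA for transcription, had 45.2 RPKM in both libraries (log2 ratio 0.00, interval -0.07 to 0.07). Tcof1, which encodes treacle, a partner of this factor, was as close, at 30.2 and 31.6 RPKM (0.07, interval -0.02 to 0.15). Ncl had a log2 ratio of 0.05 (interval 0.02 to 0.08). The scaffold and chaperone genes were the higher ones of this group. Nolc1, whose protein escorts snoRNPs in the nucleolus, had 60.3 and 79.2 RPKM (0.39, interval 0.33 to 0.46). Npm1 had a log2 ratio of 0.39 (interval 0.35 to 0.42). Mybbp1a, a nucleolar MYB-binding protein gene, had 92.4 and 113 RPKM (0.30, interval 0.24 to 0.35). So 3 of these 6 (50%) passed 1.2-fold, against 30% of tested genes, and Ubtf, Tcof1 and Ncl did not.

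The enzyme particles that modify rRNA held 1 gene past 1.2-fold, where 30% of tested genes were higher by that much. Box C/D snoRNPs methylate rRNA, and their core genes showed little difference. Fbl, the methyltransferase of the particle, had a log2 ratio of -0.00 (interval -0.08 to 0.08). Nop56 had 137 and 144 RPKM (0.08, interval 0.01 to 0.14), and Nop58 had 120 and 135 RPKM (0.17, interval 0.07 to 0.26). Comparisons of partners, here and below, were not planned, and the gene with the higher ratio was put first, so the sign was fixed. Among these 3 partners the differences were small. Nop58 exceeded Nop56 by 0.09 (interval -0.02 to 0.20) and Fbl by 0.17 (0.05 to 0.29). Nop56 exceeded Fbl by 0.08 (-0.02 to 0.18). None of the 3 passed 1.2-fold, and after quantile normalization all 3 were below 0. H/ACA snoRNPs turn uridine into pseudouridine, and 1 of their 4 core genes passed 1.2-fold. Nhp2 had 74.6 and 101 RPKM (0.44, interval 0.33 to 0.56). The pseudouridine synthase gene Dkc1 had 73.6 and 81.6 RPKM (0.15, interval 0.08 to 0.22), Nop10 had 110 and 121 RPKM (0.15, interval 0.03 to 0.26), and Gar1 had 26.4 and 26.9 RPKM (0.03, interval -0.15 to 0.21). Within this particle of fixed composition, Nhp2 exceeded Gar1 by 0.41 on the log2 scale (interval 0.20 to 0.62), Dkc1 by 0.29 (0.16 to 0.43) and Nop10 by 0.30 (0.13 to 0.46).

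The SSU processome was represented by 18 factors, with a median log2 ratio of 0.27. Past 1.2-fold, 10 (55.6%) were higher and 0 lower. By that much 30% of tested genes were higher, and 39.7% of those reaching 20 RPKM. Emg1, whose protein methylates 18S rRNA at a pseudouridine, was at 59.4 RPKM in NTB-GMP against 93.1 in 4T1-GMP, 1.57-fold higher (log2 ratio 0.65, interval 0.52 to 0.77). It was followed by Wdr75 (25.4 and 37.9 RPKM, 0.58) and Noc4l (25.7 and 36.9 RPKM, 0.52). Dcaf13 (0.41), Wdr3 (0.35), Heatr1 (0.34), Imp4 (0.33), Rrp9 (0.30), Rcl1 (0.27) and Utp15 (0.27) also passed 1.2-fold, the last pair narrowly. Utp20 (0.22), Wdr43 (0.22) and Pwp2 (0.21) were just under that fold. Bms1, a GTPase gene, had 0.08 and Nop14 had 0.07, and their intervals held 0. Imp3 (-0.01), Nol6 (-0.06) and the helicase gene Ddx10 (-0.10) were the 3 on the lower side, each with an interval that held 0.

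Some SSU proteins that work in contact had mRNAs with unequal ratios, in pairs that were not planned. Wdr75, Wdr43, Heatr1 and Utp15 encode parts of the subcomplex that binds the precursor first. In it Wdr75 exceeded Wdr43 by 0.35 (interval 0.21 to 0.49), Utp15 by 0.31 (0.13 to 0.48) and Heatr1 by 0.24 (0.10 to 0.37). Nop14 binds the proteins of Noc4l and Emg1, and it was lower in log2 ratio than Noc4l by 0.46 (interval 0.27 to 0.65) and than Emg1 by 0.58 (0.40 to 0.76). Imp3 and Imp4 encode partners that bind the U3 snoRNP, and Imp4 exceeded Imp3 by 0.34 (interval 0.12 to 0.56). Rcl1, which pairs with Bms1, exceeded it by 0.19 (interval 0.02 to 0.36). These intervals concern the reads of these libraries alone, and the order of partners in other libraries was not tested.

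The last steps of 40S maturation held the factor with the largest difference. Pno1, whose protein sits at the 3′ end of 18S rRNA until the final cut, was at 21.2 RPKM in NTB-GMP (at least 338 reads) against 41.0 in 4T1-GMP (at least 1922 reads). It was 1.92-fold higher (log2 ratio 0.94, interval 0.78 to 1.12), above 96.4% of all tested genes, and between 0.78 and 1.03 under the other scalings. Nob1, the nuclease that makes that cut and a direct partner of Pno1, had 18.8 and 21.1 RPKM (0.16, interval -0.02 to 0.35). The difference between these partners was 0.78 (interval 0.54 to 1.03). Rrp12, an export factor gene, had 16.8 and 21.3 RPKM (0.33, interval 0.22 to 0.46), and Tsr1 had 30.3 and 34.9 RPKM (0.20, interval 0.10 to 0.30).

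Assembly of the 60S subunit was served by 18 factors with a median log2 ratio of 0.22, of which 8 (44.4%) passed 1.2-fold. That share was above the 30% of all tested genes and near the 39.7% of those reaching 20 RPKM. Mrto4, whose protein holds the place of the ribosomal stalk, had 33.8 and 53.3 RPKM, 1.57-fold higher (log2 ratio 0.65, interval 0.50 to 0.81). Bop1 had 32.8 and 50.8 RPKM, 1.55-fold higher (0.63, interval 0.52 to 0.74). Mrto4 was above 92.2% of all tested genes and Bop1 above 91.5%. Mrto4 has annotated pseudogenes, and how reads shared with them were counted is not given in the sources used here. Ebna1bp2 (34.6 and 51.0 RPKM, 0.56), Nop16 (0.42), Ddx56 (0.36), Nip7 (0.32), Pes1 (0.31) and Ddx18 (0.30) passed 1.2-fold as well. Noc3l (0.23), the rRNA methyltransferase gene Nop2 (0.22), Gnl3 (0.22), which encodes nucleostemin, Ddx21 (0.20), Rrs1 (0.19), Rrp1 (0.19), Rrp1b (0.16) and Wdr12 (0.16) were higher by less than that.

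Only 2 of the 60S factors were lower in 4T1-GMP. Noc2l was at 63.3 RPKM in NTB-GMP against 57.0 in 4T1-GMP (log2 ratio -0.15, interval -0.23 to -0.07), the lowest ratio of all 53. Its partner in pre-60S particles, Noc3l, exceeded it by 0.38 (interval 0.21 to 0.55). Ddx51 had a log2 ratio of -0.03 (interval -0.19 to 0.14). Bop1, Pes1 and Wdr12 encode the PeBoW complex, named after them, which is needed to process 28S rRNA. In this complex Bop1 exceeded Pes1 by 0.32 (interval 0.18 to 0.46) and Wdr12 by 0.47 (0.17 to 0.77), while Pes1 and Wdr12 differed by 0.15 (-0.14 to 0.44). The recovered reads of Wdr12 may be too few, so the intervals that involve it may be too wide. Rrp1 and Rrp1b, which are related in sequence, differed by 0.02 (interval -0.12 to 0.17).

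Genes that start next to each other offered another view of single factors. In the GENCODE M21 annotation of GRCm38, the genome of the mm10 build, 12 factors start within 1000 bases of a tested protein-coding gene on the other strand that runs away from them. Emg1 (chr6:124704085-124712178, minus strand) starts 158 bases from Phb2, the gene of prohibitin 2. Phb2 was at 112 RPKM in NTB-GMP against 167 in 4T1-GMP, a log2 ratio of 0.57 beside 0.65 for Emg1. Noc4l and Ddx51, both factors, start 34 bases apart on chromosome 5. Their ratios differed, as Noc4l exceeded Ddx51 by 0.55 on the log2 scale (interval 0.33 to 0.76). The bases between the starts of these pairs are given below from RefSeq, build GRCm38.p6, 5′ to 3′ in the direction of the second gene, because the first pair was higher together and the second was not. Wdr3 with Gdap2 (0.35 and 0.66) and Imp4 with Ccdc115 (0.33 and 0.27) were also both higher past 1.2-fold and are not shown. As the pairs shown were picked by their ratios, any part of the letters between them was not tested. Capitals mark CCGGAAG, the core letters of sites for ETS factors, which was searched on both strands.
Phb2 to Emg1, chr6:124712179-124712335, minus strand: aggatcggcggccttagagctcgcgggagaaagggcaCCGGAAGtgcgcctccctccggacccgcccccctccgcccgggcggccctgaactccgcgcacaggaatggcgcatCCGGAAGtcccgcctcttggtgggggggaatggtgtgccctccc
Noc4l to Ddx51, chr5:110653418-110653450, plus strand: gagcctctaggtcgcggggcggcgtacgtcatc

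The other 3 factors past 1.5-fold had neighbors that did not follow them or none of this kind. Mrto4 (chr4:139347435-139352576, minus strand) starts next to Emc1 and Ubr4, whose log2 ratios were -0.03 and -0.31. Bop1 (chr15:76452989-76477277, minus strand) starts 145 bases from Hsf1, the gene of a heat shock transcription factor, at -0.22. Pno1 (chr11:17203198-17211568, minus strand) had no such neighbor. Over the 13 neighbors the median log2 ratio was 0.05, with 4 higher and 1 lower past 1.2-fold, where 30% of tested genes were higher and 24.9% lower. Exons of 19 factors share bases with a gene on the other strand, Emg1 among them with 334 bases of Lpcat3 and Pno1 with 33 bases of Wdr92. Whether reads were counted by strand is not given in the sources used here, so reads of such partners cannot be told apart. Lpcat3 had 16.2 and 21.6 RPKM and Wdr92 had 9.39 and 9.52 RPKM.

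Promoters were also read for CACGTG, the letters of the E-box that MYC and MAX bind, since MYC is known to drive genes of ribosome biogenesis. RefSeq gave a promoter, 250 bases before to 50 after the start, for 45 of the 53 factors. CACGTG, which reads the same on both strands, was in 8 of the 45 (17.8%), against 11% of 7988 tested genes and 7.24% of all 27025 promoters. CCGGAAG was in 15 of the 45 (33.3%), against 20.8% and 9.12%. The ratios of factors with and without each motif were close. The 8 with CACGTG had a median log2 ratio of 0.26, with 4 past 1.2-fold, and the other 37 had 0.21, with 16 past it. The 15 with CCGGAAG had a median of 0.23, with 7 past 1.2-fold, and the other 30 had 0.22, with 13 past it. A match in letters is not a measured binding site. The 8 matches are given with the bases around them, 5′ to 3′ in the direction of the gene, with CACGTG in capitals.
Pno1, chr11:17211540-17211562, minus strand: tacaaccacgCACGTGttcctct
Imp4, chr1:34439698-34439723, plus strand: ggtcttagacCACGTGacatcccaaa
Pes1, chr11:3963967-3963992, plus strand: ctaggcagggCACGTGcgggaggaag
Mybbp1a, chr11:72441357-72441376, plus strand: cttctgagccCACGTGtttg
Utp20, chr10:88826765-88826787, minus strand: gcactaactaCACGTGaggaaaa
Wdr43, chr17:71616222-71616247, plus strand: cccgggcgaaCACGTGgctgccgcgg
Nop2, chr6:125131813-125131838, plus strand: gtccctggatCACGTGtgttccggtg
Tsr1, chr11:74898094-74898119, plus strand: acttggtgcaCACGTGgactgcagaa

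The lines run from the highest to the lowest log2 ratio, from 0.94 for Pno1 to 0.20 for Tsr1. The match lay before the start in Imp4, at position -121, and in Nop2, at position -60. In the other 6 it began after the start, from position 3 in Pes1 to position 41 in Mybbp1a.

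Factors that hold snoRNA genes were among those with the smaller ratios. Ncl, Nop56, Nop58, Dkc1, Gnl3, Wdr43 and Tsr1 hold 21 annotated snoRNA genes on their own strand. Their log2 ratios ran from 0.05 for Ncl to 0.22 for Wdr43, with a median of 0.17 and 0 of 7 past 1.2-fold. The other 46 factors had a median of 0.27, with 24 past 1.2-fold. By that much 30% of tested genes were higher, and 39.7% of those reaching 20 RPKM. This split was chosen after the values were seen. All hosts but Tsr1 were above 50 RPKM in both libraries. Factors of 50 to 100 RPKM had a median of 0.22, and those of 100 RPKM or more one of 0.15. The part of level in the split was not tested. Across the 53 factors, as a description, the log2 ratio had a Pearson r of -0.20 with log2 transcript length and -0.13 with GC content (Spearman rho -0.19 and -0.11). The longest annotated transcript of a factor had a median of 3128 bases and 50.1% GC, against 3340 bases and 49.3% over the tested genes with a transcript.

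Other genes of the pathway that are not among the 53 were listed by role. Of 129 listed, 128 were found and tested, with a median log2 ratio of 0.15. Past 1.2-fold, 41 were higher and 3 lower, and past 1.5-fold 4 were higher and 0 lower. The higher shares, 32.0% past 1.2-fold and 3.13% past 1.5-fold, were near and below those of all tested genes (30% and 9.8%), and the lower share of 2.34% past 1.2-fold was below theirs (24.9%). The other SSU processome and 40S factors had a median of 0.17, with 17 of 38 higher and 0 lower past 1.2-fold, and the other 60S factors one of 0.14, with 13 of 45 higher and 1 lower. SnoRNP assembly factors (0.17, 4 of 10 higher) and subunits of the nuclear exosome with its helpers (0.17, 3 of 15 higher) were close to these.

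The largest rises in these lists were of Tma16, a 60S factor gene (24.3 and 46.5 RPKM, log2 ratio 0.93), Znhit3, a snoRNP assembly factor gene (11.2 and 18.8 RPKM, 0.74), and Rrp8 (8.66 and 13.6 RPKM, 0.65), whose protein is known both as an rRNA methyltransferase and as a silencer of rDNA. Mphosph10, named after its value was seen because its protein holds Imp3 and Imp4 together, had 38.5 and 60.1 RPKM (0.64). The largest falls were of Baz2a (18.5 and 13.4 RPKM, -0.46), which encodes a subunit of the complex that silences rDNA, Taf1a (6.17 and 4.46 RPKM, -0.46), a polymerase I promoter factor gene, and Gltscr2 (95.2 and 71.6 RPKM, -0.41), which encodes the 60S factor NOP53.

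Genes of rDNA transcription outside the 53 formed a pair of lists. The 7 genes that act on polymerase I transcription had a median of -0.02, with 0 higher and 2 lower (28.6%) past 1.2-fold. Of tested genes, 30% were higher and 24.9% lower. The 2 were Taf1a and Baz2a, and Baz2a serves the silencing of rDNA. The 13 subunits of RNA polymerase I had 0.13, with 4 higher (30.8%) and 0 lower. These were Polr1e (0.48), Polr2h (0.40), Polr2l (0.32) and Polr2k (0.31), and the Polr2 genes encode subunits shared with polymerases II and III. At any size, 10 of the 13 were higher. Of 84 symbols for cytoplasmic ribosomal proteins, 81 were tested, with a median of 0.04, and 8 (9.88%) were higher and 3 (3.7%) lower past 1.2-fold. Most of these mRNAs are very abundant, and the 74 at 100 RPKM or more also had a median of 0.04, against 0.24 for all 565 genes of that level.

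**Figure D5:**
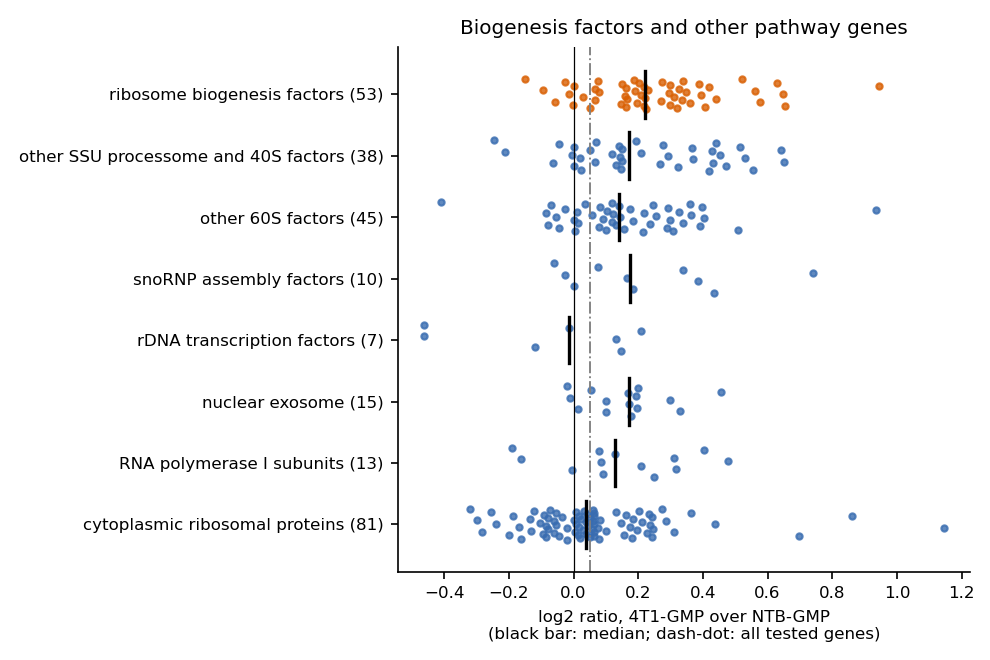
Log2 ratio of 4T1-GMP over NTB-GMP (x axis) for the 53 factors (orange), the other pathway genes by role and the cytoplasmic ribosomal proteins (blue), 1 point per tested gene, with the number of genes in brackets, a black bar at each median and a dash-dot line at the median of all tested genes. Medians go from 0.22 for the factors to 0.04 for ribosomal proteins and -0.02 for the rDNA transcription factors.

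The sorted cells were not alike in other respects. Of 12 GMP marker genes, 5 were higher and 5 lower past 1.2-fold. Mpo was abundant in both libraries (5163 and 5625 RPKM), while Elane (1853 and 2935 RPKM), Ctsg (1388 and 2998 RPKM), Prtn3 (1399 and 3311 RPKM) and Csf3r (43.2 and 92.2 RPKM) were higher in 4T1-GMP and Cd34 (154 and 59.4 RPKM) was lower. The study's methods list c-Kit and CD16/32 among the stains for finding GMPs. Kit was lower (78.5 and 49.1 RPKM), and of the genes behind CD16/32, Fcgr3 was lower (53.1 and 28.6 RPKM) and Fcgr2b higher (47.3 and 64.6 RPKM). All 14 mature neutrophil markers were higher, their summed level going from 532 to 4103 RPKM. Monocyte and dendritic markers went from 234 to 91.9 RPKM in sum, with 9 of the 10 tested ones lower past 1.2-fold, and stem and early progenitor markers from 65.2 to 25.8 RPKM. Erythroid and megakaryocyte markers came to 60.8 and 79.9 RPKM in sum, with Tfrc alone at 36.6 and 73.0 RPKM. Without Tfrc the sum went from 24.2 to 6.93 RPKM, the 4 other tested ones (Gata1, Klf1, Itga2b and Gp9) were all lower past 1.5-fold, and Hba-a1 and Hbb-bt were listed at 0 in both. Lymphoid markers came to at most 16.0 RPKM in either library. Proliferation genes had a median log2 ratio of 0.35, with 10 of 18 (55.6%) higher and 0 lower past 1.2-fold, against 30% and 24.9% of tested genes. The part of these shifts in the ratios of the biogenesis factors was not tested, and in bulk RNA fewer cells of a type and less RNA per cell cannot be told apart.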

How the data were processed

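The authors deposited RPKM (reads relative to gene length and library size) for 24421 gene symbols in 1 library per group. The authors' processing notes name CASAVA 1.8.2, cutadapt 1.2.1, TopHat2 2.0.13, Picard 1.97, HTSeq 0.6.1, edgeR 3.12.1 and the mm10 build. The annotation, gene lengths and strand setting are not given in the sources used here.

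Comparing the deposited RPKM of each gene between libraries gave whole reads for 14833 of the 14833 symbols above 0. For some genes a factor common to both libraries is lost, so these reads are minima, which widens intervals and leaves ratios as they are. The library sizes so found were not whole numbers. Both lay above the recovered totals (9486697 reads in NTB-GMP and 26353075 in 4T1-GMP). Divided by these totals, and then by the geometric mean of both quotients, they gave relative factors of 0.971 and 1.03. The trimmed mean of M values (TMM), written out in Python, gave 0.970 and 1.03 on the recovered reads, so the deposited RPKM appear to include such scaling.

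Log2 ratios used a pseudocount of 0.1 and a minimum mean RPKM of 1. Python 3.11.15, numpy 2.4.6, pandas 2.3.3, scipy 1.17.1 and matplotlib 3.10.9 were used. Intervals for the difference of 2 genes used the normal approximation on log reads. The pairs were not planned, and in each the gene with the higher ratio was put first. The procedure was tested on simulated data. The members and lists were chosen with earlier results of these data known. Every member was to be named by role, with the 3 largest rises and falls among the other pathway genes and Rn45s. Alternatives were other pseudocounts, filters, scalings and backgrounds. Proteins were not analysed here.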

Additional observations from a re-analysis of the deposited data

How the results depend on the processing

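The median log2 ratio of the factors, 0.22 as reported, stayed positive in every setting. It was 0.058 with library sizes without Rn45s and 0.088 after quantile normalization, and the counts past a fold moved with it. Without Rn45s, 8 factors were higher and 1 lower past 1.2-fold, beside 17.6% and 36.3% of tested genes. Past 1.5-fold 1 was higher, beside 5.73%. After quantile normalization, 13 were higher and 1 lower past 1.2-fold, beside 25.5% and 25.1%. Past 1.5-fold 1 was higher, beside 9.48%. In both settings the higher shares of the factors were not above those of tested genes, and the lower shares were below them. Plain totals of the recovered reads, chosen after seeing the data, gave 34 higher past 1.2-fold and 7 past 1.5-fold, beside 37.7% and 13.4%. The same totals without Rn45s gave 14 higher past 1.2-fold and 1 past 1.5-fold, beside 23.4% and 7.45% of tested genes. Except under quantile normalization, these settings shift all ratios alike by construction. What moved the values under quantile normalization was not examined (the cause was not tested). The 1 higher past 1.5-fold was Pno1 each time, and the 1 lower was Noc2l. The median minus that of all tested genes, 0.17 as reported, was 0.08 after quantile normalization, between 0.13 and 0.21 under the other planned settings, and 0.044 against genes of at least 20 RPKM, a background chosen after seeing the data. Library sizes without Rn45s subtract reads from sizes that already carry a scale factor. Pseudocounts of 1 and 0.01 left 23 and 24 factors higher past 1.2-fold, beside 27.9% and 30.2% of tested genes.

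Of 530 values of single factors under 10 settings, 423 stayed within the counting interval and 107 moved beyond it. No filter, a minimum of 5 RPKM and protein-coding genes alone change only the background, so those values were unchanged by construction. Both pseudocounts left all 53 within. Of the scalings, library sizes without Rn45s left 7 within, the median ratio 51, quantile normalization 22 and each form of recovered totals 39. In every setting, 0 of the factors past 1.2-fold changed sign. Only quantile normalization could have changed one, as the other settings shift the ratios by less than that fold or not at all. Wdr12 had the fewest recovered reads, at least 135 in NTB-GMP. That number may be too low, so it is not a measure of depth. No paired analysis was possible because neither group had a second library, and leaving out a replicate was not possible either.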

Other observations

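Myc, the gene of a transcription factor known to drive ribosome biogenesis genes, was looked up after the other values were seen. It was at 138 RPKM in NTB-GMP against 108 in 4T1-GMP (log2 ratio -0.36, counting interval -0.42 to -0.31). Myb had 360 and 335 RPKM (-0.11). Both were lower while the median of the biogenesis factors was higher, and no test of their relation is possible with 1 library per group.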
